A study of Drosophila melanogaster with 8 samples.

Results

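The citric acid cycle genes described here were 10 genes picked by symbol, each for an enzyme or enzyme subunit of the mitochondrial cycle. The rule of the choice used no measured value, but earlier results of these data were known when it was made. A probe set annotated with that symbol alone represented 6 of the 10: mAcon1, Idh3a, Idh3b, Scsalpha1, SdhB and SdhC. For kdn (citrate synthase), SdhA (the flavoprotein subunit of succinate dehydrogenase), Fum1 (fumarase) and Mdh2 (mitochondrial malate dehydrogenase), the annotation used here names no probe set, and these 4 genes were not analysed here. Each of the 6 measured genes had 1 probe set, out of 18769 probe sets tested and 11982 genes with a probe set.

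Transcript levels were compared between the heads of diapausing and non-diapausing Drosophila melanogaster females. Both groups were Canton S, a wild-type laboratory strain, placed within 8 h of eclosion into vials at 12.5 °C under 14 h of light and 10 h of darkness per day and dissected after 12 days, so that they shared strain, age, temperature and day length. The groups differed in the state of the ovaries, by which the females were sorted, and neither diapause (an arrest of egg development) nor its absence was induced by a separate treatment. RNA of the heads was hybridised to 1-colour Affymetrix arrays, 8 in all with 4 in each group. Whether the replicates were separate cultures, and how many flies each array stands for, is not in the labels, so a p-value speaks only of the spread from array to array, which may be technical.

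The citric acid cycle oxidises the acetyl group of acetyl-CoA in the mitochondrial matrix and passes the electrons to NAD and to the respiratory chain, which uses them to make ATP. Its enzymes act in turn: citrate synthase, aconitase, isocitrate dehydrogenase, 2-oxoglutarate dehydrogenase, succinyl-CoA ligase, succinate dehydrogenase, fumarase and malate dehydrogenase. Succinate dehydrogenase is also a complex of the respiratory chain, held in the inner mitochondrial membrane. In fly heads, photoreceptors, neurons and muscle all depend on mitochondrial ATP, and fat body cells use the cycle for biosynthesis too.

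All values are log2 expression values as normalized by the authors, given as mean ± SD over the 4 arrays of a group, and differences are diapause minus non-diapause with their SE. Values ran from a floor of 2.16 to 15.72. A level was compared only within its own probe set, since probe sets differ in how brightly they report the same amount of RNA. Array medians lay between 2.74 and 2.92. The array that stood apart was non-diapause 3, with a median Pearson's r to the other arrays of 0.981 against 0.992 to 0.996 for the rest, and with a mean of the midgut markers of 2.65 against 12.28 to 14.00. Of 5 eye markers 2 were measured, trp and Arr2, with group means from 13.80 to 15.04. Of 4 measured neuronal markers, elav and nSyb had group means from 9.48 to 10.48, while those of brp and para lay from 4.88 to 5.52. The midgut markers were thus high on 7 of the 8 arrays of head RNA, while testis markers and the ovary genes vas and osk lay at or near the floor. In RNA of whole heads, fewer cells of a type and less RNA per cell cannot be told apart.

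Of the 6 measured cycle genes, Scsalpha1 was the one whose groups stood apart: it was lower in all 4 diapause arrays, by 0.17 on average, a 1.12-fold difference. The other 5 genes differed by between -0.05 and 0.07, with overlapping groups. The count of lower genes depended on the scaling, with 2 of 6 lower in the deposited values, 3 after a second quantile normalization and 5 after each array was centred on its median. The median difference over the 6 genes was 0.01, beside 0.00 over all tested probe sets and 0.00 over 7593 probe sets whose mean was at least 6. In limma with Benjamini-Hochberg adjustment over all tested probe sets, 0 of the 6 genes passed an adjusted p of 0.05, as did 0% of all tested probe sets. At unadjusted p under 0.05 there was 1 of 6, lower in diapause, where 2.09% of all tested probe sets and 4.70% of those with a mean of at least 6 were lower at that threshold, and 0 of 6 were higher, where 0.906% of all tested probe sets were. The same gene was the 1 lower at unadjusted p under 0.01, as were 0.607% of all tested probe sets and 108 of the 7593 with a mean of at least 6. When probe sets with means under 4 or under 6 were left out of the fit, the limma unadjusted p of Scsalpha1 was 0.0137 and 0.0147.

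Scsalpha1 encodes the alpha subunit of succinyl-CoA ligase, which splits succinyl-CoA to succinate and conserves the energy in a nucleoside triphosphate, the step of the cycle that makes one directly. Its probe set read 12.64, 12.53, 12.58 and 12.54 on diapause arrays 1 to 4. On non-diapause arrays 1 to 4 it read 12.76, 12.73, 12.73 and 12.75. The lowest non-diapause array thus lay above the highest diapause array, diapause 1, and the non-diapause arrays lay close together. Such a separation with diapause lower was found for 1.44% of all tested probe sets and for 3.17% of those with a mean of at least 6. The means were 12.57 ± 0.05 and 12.74 ± 0.01, and the difference was -0.17 ± 0.03 (95% interval -0.23 to -0.11). In limma its unadjusted p was 5.58e-04 and its adjusted p was 0.510. The difference ranged from -0.19 to -0.16 when any 1 array was left out, and it was -0.17 without non-diapause 3 (limma adjusted p = 1.0). The study itself listed this gene, as Scsalpha, for diapause on these same arrays, so its small p is not independent evidence.

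**Figure D1:**
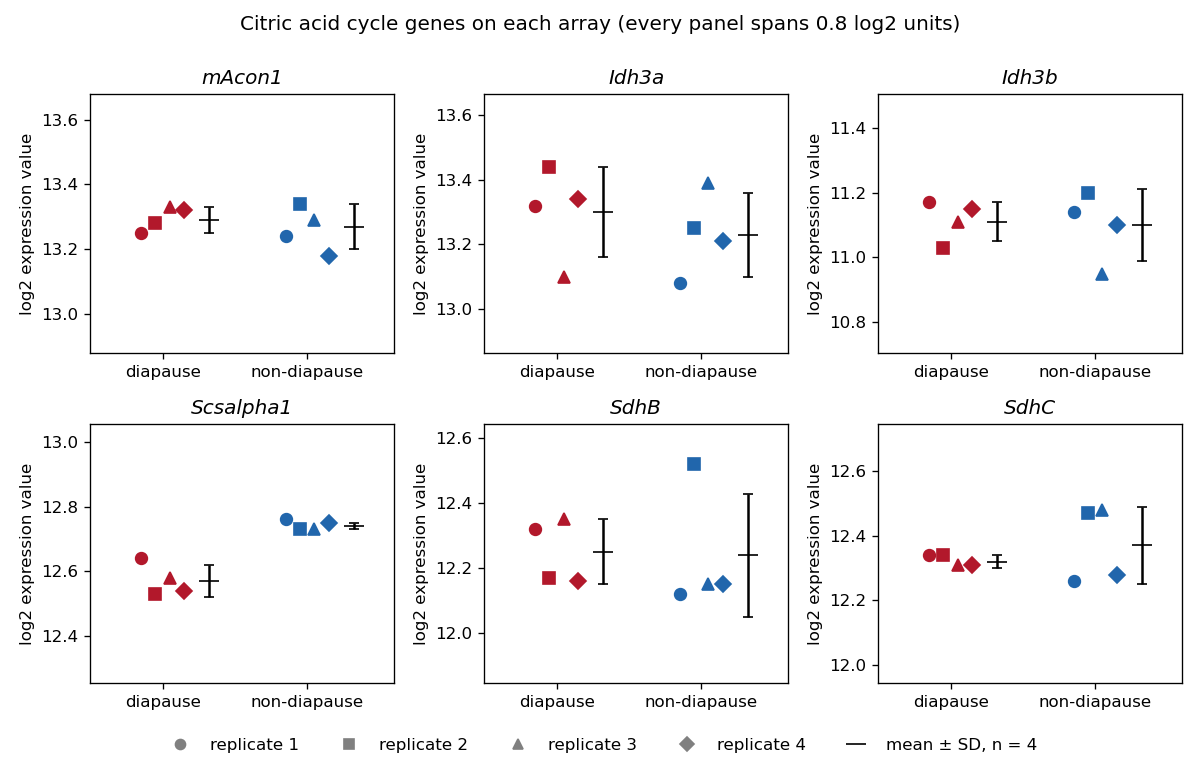
Log2 expression value (vertical axis) of the 6 measured cycle genes on each of the 8 arrays, by group, with the marker shape giving the replicate number and black bars the mean ± SD of 4 arrays; each panel spans the same height. The groups of Scsalpha1 do not overlap (12.53 to 12.64 in diapause, 12.73 to 12.76 in non-diapause heads), while the groups of the other 5 genes do, and SdhB has 1 high array, non-diapause 2 at 12.52.

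The beta subunits that pair with the alpha subunit were read from 2 further genes. ScsbetaA, for the ADP-forming enzyme, was 11.78, 11.65, 11.94 and 11.72 on diapause arrays 1 to 4 and 11.99, 12.05, 11.89 and 11.88 on non-diapause arrays 1 to 4. Diapause 3 lay among the non-diapause arrays, and the other 3 diapause arrays were below all of them. Its difference of -0.18 ± 0.07 (95% interval -0.35 to -0.01) was close in size to that of Scsalpha1, with an unadjusted p of 0.0447 and an adjusted p of 1.0 in limma. That unadjusted p was at or above 0.05 in 11 of 20 alternatives, up to 0.127 with the replicate block, and in 7 of the 8 that left out 1 array; without diapause 3 it was 0.00754. ScsbetaG, for the GDP-forming enzyme, was 7.84 ± 0.09 in diapause against 7.82 ± 0.16 in non-diapause heads on its brightest probe set, a difference of 0.02 ± 0.09. Of its other probe sets, 1 differed by -0.13 (5.88 against 6.00) and 1 lay at the floor in both groups. Whether the beta subunits differ from each other in their response was not tested.

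The genes before succinyl-CoA ligase in the cycle had nearly equal means. mAcon1, the mitochondrial aconitase that turns citrate into isocitrate, was 13.25, 13.28, 13.33 and 13.32 on diapause arrays 1 to 4 and 13.24, 13.34, 13.29 and 13.18 on non-diapause arrays 1 to 4. The diapause values lay inside the range of the non-diapause values. Its difference was 0.03 ± 0.04, with a 95% interval of -0.07 to 0.12 and a limma adjusted p of 1.0.

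Idh3a and Idh3b encode the alpha and beta subunits of the NAD-dependent isocitrate dehydrogenase. Idh3a was 13.32, 13.44, 13.10 and 13.34 on diapause arrays 1 to 4 and 13.08, 13.25, 13.39 and 13.21 on non-diapause arrays 1 to 4. Each group held 1 low array, diapause 3 and non-diapause 1, and the groups overlapped over most of their range. Its difference of 0.07 ± 0.09 was the largest in the higher direction among the 6 genes (95% interval -0.16 to 0.29, limma adjusted p = 1.0). Idh3b was 11.17, 11.03, 11.11 and 11.15 on diapause arrays and 11.14, 11.20, 10.95 and 11.10 on non-diapause arrays, again in the order of the replicate numbers. Its lowest array was non-diapause 3, the array that stood apart, and its highest was non-diapause 2. The difference was 0.01 ± 0.06 with all arrays, and its sign turned in several of the alternatives given in the closing section. The third subunit gene, Idh3g, differed by -0.05 ± 0.13 (11.80 ± 0.24 in diapause against 11.85 ± 0.08 in non-diapause heads), with diapause 3 the highest of all arrays at 12.13.

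The genes of 2-oxoglutarate dehydrogenase, the complex that makes the substrate of succinyl-CoA ligase, were equal to within 0.02. Ogdh, its first component, was 13.42 ± 0.11 in diapause against 13.40 ± 0.13 in non-diapause heads, on a probe set that may share probes with other transcripts. CG5214, which the reference annotates with the synonym alpha-KGDHC, was 11.40 ± 0.05 and 11.40 ± 0.08. CG7430, with the synonym E3, was 11.86 ± 0.07 and 11.86 ± 0.11. The 95% interval of CG5214 (-0.11 to 0.11) was the narrowest among these genes, and that of Ogdh was -0.18 to 0.21.

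Succinate dehydrogenase was read through its iron-sulfur subunit SdhB and its membrane anchor subunits SdhC and SdhD. SdhB was 12.32, 12.17, 12.35 and 12.16 on diapause arrays 1 to 4 and 12.12, 12.52, 12.15 and 12.15 on non-diapause arrays 1 to 4. The highest and the lowest array were both non-diapause ones, with non-diapause 2 well above the rest. The difference of 0.02 ± 0.11 had a 95% interval of -0.24 to 0.27, the widest of the 6 genes. Without non-diapause 2 it was 0.11, with a limma adjusted p of 1.0.

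SdhC was 12.34, 12.34, 12.31 and 12.31 on diapause arrays and 12.26, 12.47, 12.48 and 12.28 on non-diapause arrays. The diapause arrays lay within 0.03 of each other, between a lower pair (non-diapause 1 and 4) and a higher pair (non-diapause 2 and 3). The difference was -0.05 ± 0.06 (95% interval -0.18 to 0.09, limma adjusted p = 1.0). SdhD, which anchors the enzyme together with SdhC, was 11.89 ± 0.12 in diapause against 11.91 ± 0.13 in non-diapause heads, a difference of -0.02 ± 0.09. The genes listed for assembly of this enzyme were Sdhaf3 (0.01 ± 0.14), Sirup (0.12 ± 0.11) and CG14757 (-0.05 ± 0.12). Of these, 0 of 3 passed at unadjusted p under 0.05 in limma, where 2.09% of all tested probe sets were lower and 0.906% higher.

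**Figure D2:**
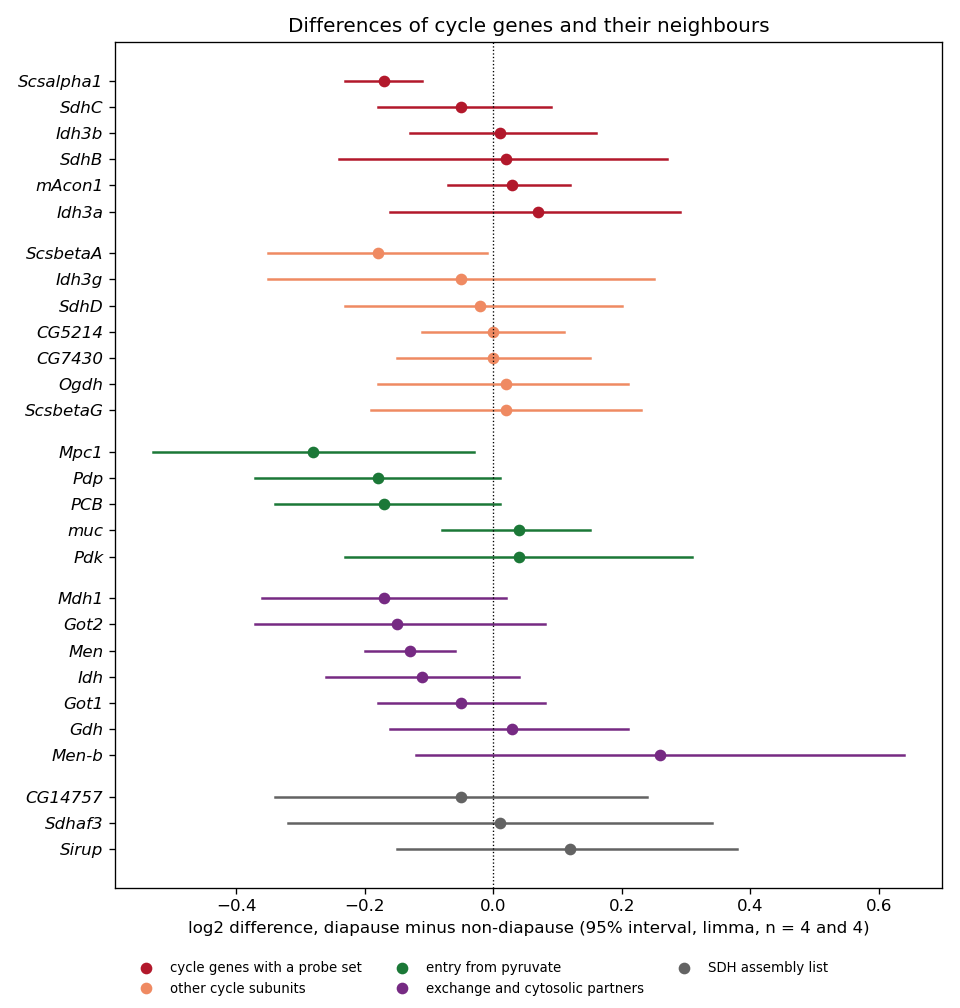
Log2 difference, diapause minus non-diapause (horizontal axis), of the 6 measured cycle genes and of 4 lists of neighbouring genes, with 95% intervals from limma on 4 arrays per group. The intervals of Scsalpha1, ScsbetaA, Mpc1 and Men lie below 0 before adjustment, that of Men-b is the widest, and ATPCL and the paralogs are not drawn.

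Across arrays, correlations between the measured cycle genes had both signs. The mean deviation of the 6 genes from their own means was between -0.05 on non-diapause 1 and 0.10 on non-diapause 2, and its group means were -0.01 ± 0.02 in diapause against 0.01 ± 0.07 in non-diapause heads. Of the 6 genes, 3 had their highest value on non-diapause 2 and 3 their lowest on non-diapause 1. Over the 15 pairs of genes, Pearson's r across the 8 arrays ran from -0.47 to 0.57 with a median of 0.11, and 10 pairs were above 0. The highest r was that of Idh3b and SdhB (0.57, Spearman's rho 0.52), and the lowest was that of Idh3a and Idh3b, subunits of the same enzyme (-0.47, rho -0.33). After the group means were taken out, the pairs ran from -0.51 to 0.67 with a median of 0.09. These correlations are descriptions over 8 arrays that share their normalization, and no test was made of them.

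**Figure D3:**
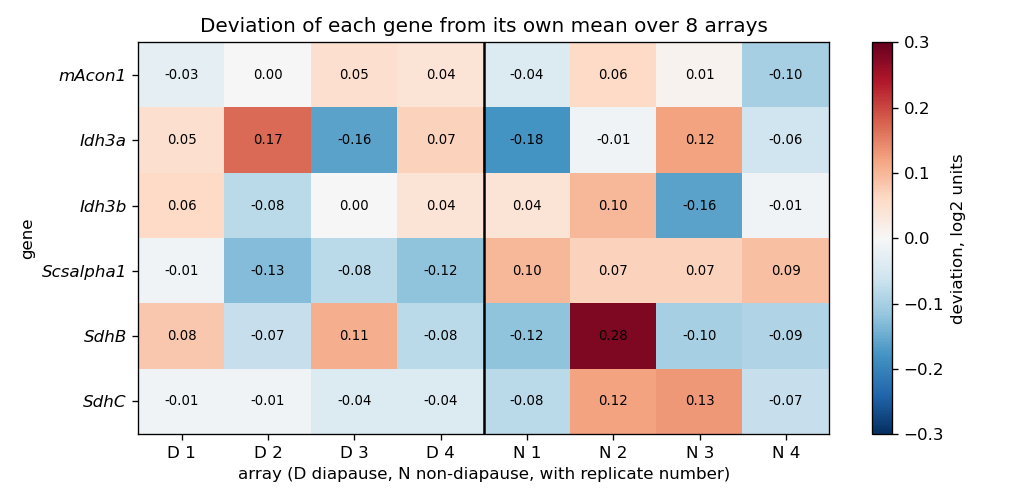
Deviation of each of the 6 measured cycle genes (rows) from its own mean over the 8 arrays, in log2 units, with diapause arrays D 1 to D 4 on the left and non-diapause arrays N 1 to N 4 on the right. The row of Scsalpha1 is below 0 on all diapause arrays and above 0 on all non-diapause arrays, the cell of SdhB on non-diapause 2 is the highest (0.28), and the rows of mAcon1, Idh3a, Idh3b and SdhB change sign within both groups, that of SdhC within the non-diapause group.

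The genes whose profile was most like the mean deviation of the 6 cycle genes, among 6233 other genes with a mean of at least 6 and an SD of at least 0.05, were Arv1 (Pearson's r = 0.93 over 8 arrays), AMPKalpha (0.91), mip40 (0.91), CG13895 (0.90) and NKCC (0.90). They were picked as the highest of many correlations over few arrays, so the values of r carry no test. Their differences between the groups ran from -0.09 (mip40) to 0.03 (NKCC), with limma adjusted p = 1.0 for each. AMPKalpha, the catalytic subunit of the AMP-activated kinase that responds to a low energy charge, was 11.40 in diapause against 11.46 in non-diapause heads.

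Of 5 measured genes that bring pyruvate into the cycle, 3 had differences below 0, from -0.28 to -0.17, and 2 were at 0.04, values that were below 0 when arrays were centred on their medians. Mpc1, a subunit of the carrier that takes pyruvate into mitochondria, was 11.40, 11.19, 11.66 and 11.48 on diapause arrays 1 to 4 and 11.82, 11.70, 11.61 and 11.73 on non-diapause arrays 1 to 4. Diapause 3 lay between non-diapause arrays, and the other diapause arrays were below all of them. Its difference of -0.28 ± 0.10, a 1.22-fold lower mean, had an unadjusted p of 0.0328 and an adjusted p of 1.0 in limma. The unadjusted p was at or above 0.05 in 8 of 20 alternatives, up to 0.0870 with the replicate block, and in 6 of the 8 that left out 1 array; it was 0.00753 without diapause 3 and 0.0374 without non-diapause 3. PCB, the pyruvate carboxylase that makes oxaloacetate from pyruvate, was 13.52 ± 0.10 in diapause against 13.69 ± 0.11 in non-diapause heads (-0.17 ± 0.07, limma unadjusted p = 0.0578). Its groups did not overlap at full precision but met at 13.60. Groups without overlap, diapause lower, were found for 1.44% of all tested probe sets and 3.17% of those with a mean of at least 6. A dimmer probe set of PCB gave -0.31 with a limma unadjusted p of 0.577, and the mean of its probe sets gave -0.24 ± 0.28. Pdp, the phosphatase that activates pyruvate dehydrogenase, differed by -0.18 ± 0.08, by -0.12 without diapause 3 and by -0.08 without both arrays numbered 3. The kinase gene Pdk, which acts against it, differed by 0.04 ± 0.11, and muc, the E2 component of pyruvate dehydrogenase, by 0.04 ± 0.05. Of the 5 genes, 1 was lower at unadjusted p under 0.05, where 2.09% of all tested probe sets and 4.70% of those with a mean of at least 6 were, and 0 passed the adjusted test, with a median difference of -0.17. Pdha and Pdhb were not analysed here.

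Among genes that exchange intermediates with the cycle or act beside it in the cytosol, 5 of the 7 with a mean of at least 6 were lower in diapause (6 after centring on array medians). Men, the cytosolic malic enzyme that turns malate into pyruvate, was 13.79, 13.88, 13.77 and 13.83 on diapause arrays 1 to 4 and 14.00, 13.93, 13.96 and 13.90 on non-diapause arrays 1 to 4. Its groups did not overlap, with diapause lower, as for 1.44% of all tested probe sets and 3.17% of those with a mean of at least 6. The difference was -0.13 ± 0.03 (limma unadjusted p = 0.00495, adjusted p = 1.0). The unadjusted p was 0.0511 when probe sets dimmer than a mean of 6 were left out of the fit and 0.0899 in limma-trend with a robust prior. Mdh1, the cytosolic malate dehydrogenase, differed by -0.17 ± 0.08 and Got2, the mitochondrial aspartate aminotransferase, by -0.15 ± 0.09. Men-b, the second malic enzyme gene of this list, had the largest difference in the other direction, 0.26 ± 0.16, with diapause arrays between 11.41 and 12.11 and non-diapause arrays between 11.37 and 11.51. Its SD was 0.32 in diapause against 0.06 in non-diapause heads, and diapause 4 was the highest array. The probe set of ATPCL, the ATP citrate lyase, read 2.16 on every array, the floor, and gives no comparison. Of the 8 genes of this list, 1 was lower at unadjusted p under 0.05, Men, where 2.09% of all tested probe sets and 4.70% of those with a mean of at least 6 were, and 0 passed the adjusted test.

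Of 13 measured genes listed as paralogs of cycle and related enzymes, 12 had a mean under 4, at or near the floor in both groups. They included SdhAL, SdhBL, Fum2, Fum3, Fum4, mAcon2 and Scsalpha2, the last at 3.17 on every array. The one with signal was CG1544, which was placed in the list from background knowledge and which the tables used here do not annotate. CG1544 read 7.22, 7.04, 7.15 and 7.21 on diapause arrays 1 to 4 and 8.09, 7.73, 7.82 and 7.95 on non-diapause arrays 1 to 4. Its lowest non-diapause array was above all diapause arrays, as for 1.44% of all tested probe sets and 3.17% of those with a mean of at least 6. The mean of CG1544 was 1.68-fold lower in diapause (limma adjusted p = 0.238). The difference lay between -0.80 and -0.68 when any 1 array was left out. Of the 13 genes, 1 was lower at unadjusted p under 0.05 in limma, CG1544. At that threshold 2.09% of all tested probe sets and 4.70% of those with a mean of at least 6 were lower.

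Beside the cycle, neighbouring parts of energy metabolism gave small differences too. Of 32 measured genes with the symbol prefix ND- of respiratory complex I, 25 had a mean of at least 6. Of these 25, 23 were lower in diapause, with a median over the 32 of -0.05. Of 14 genes with the symbol prefix ATPsyn of ATP synthase, 10 had such a mean. Of these, 9 were lower, with a median over the 14 of -0.03. Both lists and their medians include like-named genes at or near the floor, such as ND-20L and ATPsynbetaL, which may not encode subunits. Of 9 measured glycolytic genes, 5 were lower, with a median of -0.05. The corresponding count for the cycle was 2 of 6 lower, and 48.7% of all probe sets with such a mean were below 0. After centring on array medians these counts were 25 of 25 for complex I, 9 of 10 for ATP synthase, 7 of 9 for glycolysis and 5 of 6 for the cycle, beside 68.0% of all probe sets with such a mean. No test of the difference between these lists was made, and 0 genes of any of them passed the adjusted test in limma.

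The levels of markers of other cell types are given here beside these differences, and 0 of them passed the adjusted test in limma. All 6 measured fat body markers (Yp1, Yp2, Yp3, Lsp2, apolpp and GLaz) were lower in diapause. Their mean level was 14.18 to 14.23 on diapause arrays and 14.39 to 14.50 on non-diapause arrays. How often such a mean separates the groups was not tested. Yp1, Yp2 and Yp3 encode yolk proteins, which the paper describes as components of the developing oocyte. The state of the ovaries was what the females were sorted by, so these 6 genes are not neutral markers of the tissue. All 6 measured muscle markers were higher in diapause, with a mean level of 11.68 to 11.93 against 11.39 to 11.71, ranges that overlap. All 3 glial markers (repo, Gs2 and nrv2) were higher too, at 12.11 to 12.31 against 11.95 to 12.26, again with overlap. The directions for fat body, muscle and glia were the same under both other scalings. Of the 4 neuronal markers 3 were higher and nSyb was lower, with overlapping means of 7.15 to 8.20 against 6.92 to 7.98. The 2 eye markers had a median difference of -0.02. The 5 midgut markers had means of 12.28 to 14.00 on diapause arrays and 2.65 to 14.00 on non-diapause arrays, where the other 3 arrays lay above non-diapause 3, at 12.67 to 14.00. None of the fat body, muscle or midgut markers was at the floor on every array. The part of any of these cell types in the differences of Scsalpha1, ScsbetaA, Mpc1, Men and CG1544 was not tested.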

How the data were processed

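The values deposited by the authors are on the log2 scale, with 1 value for each probe set on each array. The submitters' processing notes name GCRMA, which corrects background by probe sequence, normalizes by quantiles and summarises probes into probe sets, and the sources used here do not give its version. Values near the floor have no order, and differences near the top of the scale may be compressed, which was not tested here. No further normalization or filter was applied.

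Groups and replicate numbers came from the sample titles, and probe sets were named through the platform annotation. Of 18769 tested probe sets (183 AFFX controls left out), 13647 had 1 symbol, 402 several and 4720 none; only the first were assigned to genes, through the brightest probe set of each. Gene lists were matched by locus tag to a Release 6 reference table, used for names only. The comparison used limma 3.58.1 under R 4.3.3 (lmFit, eBayes, default prior, 2-sided) on all 8 arrays, with Benjamini-Hochberg adjustment over the tested probe sets. The fit was run on simulated data with independent noise and planted changes larger than the differences of the 6 cycle genes. That run does not speak to differences as small as theirs. The number of arrays limits the precision.

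Besides the members, the text names pathway genes with unadjusted p under 0.05 and up to 3 per list with the largest difference and a group mean of at least 5; other subunits of enzymes described were added after their values were seen. The members and lists were chosen with earlier results of these data known. As alternatives, the replicate number was a block, dim probe sets were removed (means under 4 or under 6), limma-trend was run with and without a robust prior, arrays were normalized by quantiles once more, centred on their medians or weighted, control probe sets were kept, a gene's probe sets were averaged or 1 per gene was fitted, and each array, or both arrays numbered 3, were left out.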

Additional observations from a re-analysis of the deposited data

Results flagged for a closer look

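In the 40 groups of 4 arrays examined for the 20 named genes, 2 had 1 array far from the other 3 of its group, by Dixon's ratio of the gap to the range. Chance alone flags about 1 in 20 groups. SdhB was 12.52 on non-diapause 2, where the nearest array of the group was 12.15 and the lowest 12.12, a ratio of 0.937. Pdp was 9.46 on diapause 3, with the other diapause arrays from 9.68 to 9.72, a ratio of 0.841.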

How the results depend on the processing

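Under all 20 alternatives, 0 of the 6 cycle genes passed the adjusted threshold in limma. With both arrays numbered 3 left out, 2 of the 6 had an unadjusted p under 0.05 instead of 1, the added gene being Idh3a (0.18, limma adjusted p = 0.923). The share of all probe sets under 0.05 in that fit was not computed, so this count has no background beside it. With any 1 array left out, the unadjusted p of Idh3a in limma was between 0.146 and 0.860. Scsalpha1 stayed lower under every alternative, from -0.23 to -0.16, with unadjusted p from 3.45e-05 to 0.0493 (the latter in limma-trend with a robust prior) and adjusted p from 0.340 to 1.0 in limma. Centring on array medians moved the median of all probe sets by -0.06 and the median over the cycle genes to -0.05; leaving out 1 array gave medians from -0.01 to 0.05. Of 400 gene results under alternatives, 28 changed sign, all of genes with differences between -0.05 and 0.03 with all arrays. After centring, mAcon1 was -0.03, Idh3b -0.05, SdhB -0.05, ScsbetaG -0.04 and Sdhaf3 -0.05. After a second quantile normalization, Idh3b was -0.01, ScsbetaG -0.02 and Sdhaf3 -0.03. Array weights gave SdhB -0.01, and the mean of all its probe sets gave ScsbetaG -0.04. Without both arrays numbered 3, Idh3b was -0.03, SdhB -0.05, ScsbetaG -0.07 and CG14757 0.07. With 1 array left out, Idh3b ranged from -0.04 to 0.05, SdhB from -0.02 to 0.11, Idh3g from -0.16 to 0.03, ScsbetaG from -0.03 to 0.08, CG14757 from -0.13 to 0.03 and Sdhaf3 from -0.10 to 0.11. The causes were not tested.

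Whether the replicate numbers pair the arrays is not in the labels, and deviations of same-numbered arrays correlated at -0.31, -0.62, -0.35 and 0.06. With the replicate block, 0 of 6 cycle genes passed the adjusted threshold and Scsalpha1 was at -0.17 (limma adjusted p = 1.0). The unadjusted p of ScsbetaA was then 0.127 and that of Mpc1 0.0870.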
